A study of Mus musculus with 2 samples.

Results

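The genes described here encode 10 antioxidant enzymes of the newborn mouse liver: the superoxide dismutases Sod1 and Sod2, catalase (Cat), the glutathione peroxidases Gpx1 and Gpx4, the peroxiredoxins Prdx1, Prdx2, Prdx5 and Prdx6, and the biliverdin reductase Blvrb. They were taken by gene symbol from 43346 genes in the tables, with no threshold on a value, and all 10 were found. The material was liver tissue of B6NCrl mice, an inbred strain, taken at postnatal age 0 days with no treatment named in the labels. The single group holds 2 libraries, replicate 1 from pup 1 and replicate 2 from pup 3. Each was made from 13 pg of tissue RNA longer than 200 nt, which is 1 cell-equivalent, so every value is an average over the cells of an organ and not a measurement of a single cell. The labels name different pups, but 1 donor entry is attached to both libraries, so whether they come from separate animals is not settled. With 1 library per pup, animal and technical parts of the spread between libraries cannot be told apart. With no contrast in the design, no test was possible. Levels are therefore given for each pup, with the mean ± SD (n = 2), and differences are descriptive.

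Superoxide, a by-product of respiration, is converted by superoxide dismutases to hydrogen peroxide. Catalase breaks hydrogen peroxide down within peroxisomes, glutathione peroxidases reduce it with glutathione, and peroxiredoxins reduce it with a reactive cysteine that is then restored, for most of them, by thioredoxin. Hepatocytes meet peroxide from fatty acid oxidation and detoxification, and red cells meet it from the oxidation of haemoglobin, so both cell types are known for high levels of these enzymes. Blvrb reduces flavins and the beta isomer of biliverdin with NADPH and is abundant in red cells.

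The catalytic residues of 6 of these enzymes can be read in their coding sequence, and they are shown because they divide the peroxidases into those that use selenium and those that use sulphur. Each line below gives 30 bases of the coding strand of the mouse GRCm38 assembly, with the catalytic codon in capitals. Gpx1 and Gpx4 carry TGA, a stop codon that selenoprotein transcripts read as selenocysteine, and the peroxiredoxins carry a cysteine codon.
Gpx1: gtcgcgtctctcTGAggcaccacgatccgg
Gpx4: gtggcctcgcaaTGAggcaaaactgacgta
Prdx1: tttacttttgtgTGTcccacggagatcatt
Prdx2: ttcacttttgttTGCcccacggagatcatc
Prdx5: tttacacctggcTGTtctaagacccacctg
Prdx6: tttaccccagtgTGCaccacagaacttggc
The capitals mark codon 47 of Gpx1 at chr9:108339451-108339453 (plus strand) and codon 73 of Gpx4 at chr10:80054737-80054739 (plus strand). They mark codon 52 of Prdx1 at chr4:116691823-116691825 (plus strand) and codon 51 of Prdx2 at chr8:84970483-84970485 (plus strand). In Prdx5 they mark codon 96 at chr19:6907988-6907990 (minus strand), in a window that crosses an exon junction, and in Prdx6 codon 47 at chr1:161247368-161247370 (minus strand). Prdx1 and Prdx2 shared 26 of 30 bases in this window, the closest of the peroxiredoxin combinations, and the other peroxiredoxin combinations shared 13 to 17. Gpx1 and Gpx4 shared 17 of 30.

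Expected counts, the deposited estimates of reads per gene, totalled 56959836 in pup 1 and 35973980 in pup 3, and a count of 0 allows up to 0.0547 and 0.0862 CPM (expected counts scaled to the endogenous total), respectively, taking 3 counts as the limit. Amplified reads without molecular identifiers are not independent molecules, so such limits cover counting error only. The 10 enzymes together held 271899 and 197326 counts. Of 10 hepatocyte markers all were detected in both pups, with a summed share of 14.98% of endogenous TPM (a level corrected for transcript length and scaled to a fixed total, spike-ins removed) in pup 1 and 11.7% in pup 3. Of 14 red cell markers 12 were detected in both, and the list summed to 13.5% and 16.5%, with Epb42 and Klf1 at 0 counts in pup 3. Neutrophil markers (9 of 9 in both) summed to 0.692% and 0.929%, macrophage markers (5 of 9) to 0.0653% and 0.105%. Of 5 T and NK cell genes, Cd3e, Cd3d and Trbc2 were at 0 counts in both pups. Gzma was at 42.6 and 86.1 TPM and Nkg7 at 24.5 and 0 TPM. Of 5 bile duct genes, Krt7 and Epcam were at 0 counts in both pups. Spp1 was at 113 and 221 TPM, Krt19 at 0 and 48.3 TPM and Sox9 at 1.71 and 0 TPM. RNA of both hepatocytes and red cells was thus present, and these libraries cannot place an enzyme in either of them.

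Every enzyme was detected at 1 TPM or more in both libraries, and 9 of 10 were abundant, at a mean of 308 to 2429 TPM. The exception was Sod2 at 30.6 TPM. Detection in both pups was less frequent in the table as a whole: of 7678 genes detected in either pup, 46.3% were detected in both. That share is over genes of any level and was not matched to the level of the enzymes. Together the enzymes held 0.723% of endogenous TPM in pup 1 and 0.720% in pup 3 (0.721 ± 0.00150%). This near-equality of the sums hides unequal members, since without Sod1 the other 9 summed to 5578 TPM in pup 1 and 6653 TPM in pup 3.

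**Figure D1:**
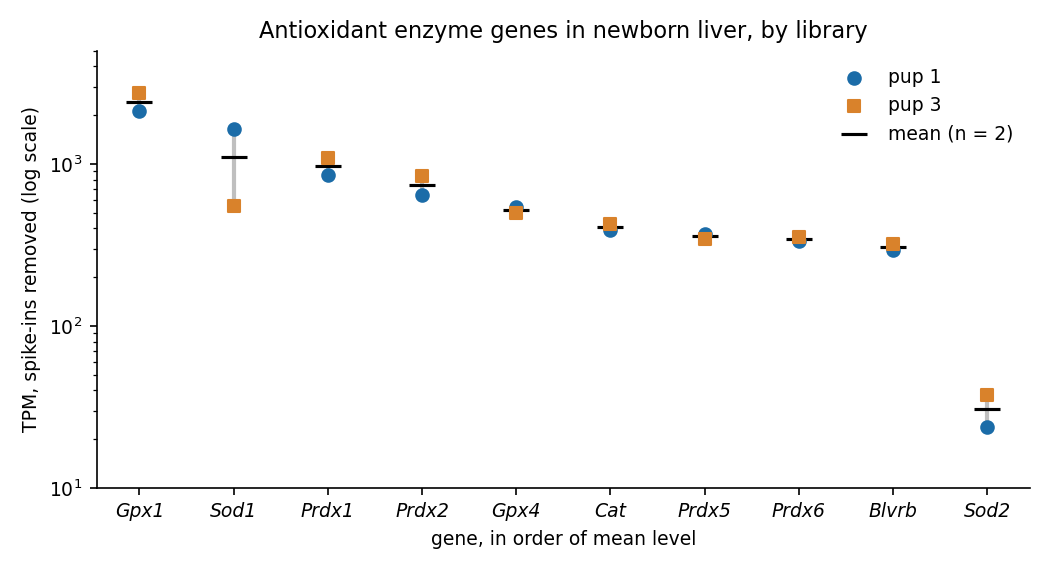
Level of each enzyme gene in TPM with spike-ins removed (vertical axis, log scale) in pup 1 (circles) and pup 3 (squares), with the mean of the 2 libraries as a bar, in order of mean. Gpx1 is the highest at 2429 TPM and Sod2 the lowest at 30.6 TPM, and the widest gap between pups is that of Sod1, at 1647 and 552 TPM.

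Among the superoxide dismutases the cytosolic enzyme dominated. Sod1, the copper- and zinc-containing form (chr16:90220754-90226329), stood at 1647 TPM in pup 1 and 552 TPM in pup 3 (1099 ± 775), from 37613 and 8643 expected counts. Sod2, the manganese form of the mitochondrial matrix (chr17:13006846-13040063), stood at 23.9 and 37.2 TPM (30.6 ± 9.43), from 3715 and 3972 counts. Sod1 was therefore above Sod2 in each pup, and the genes differed between pups in opposite directions. The copper chaperone Ccs, which loads copper into Sod1, was at 88.1 and 236 TPM, higher in the pup with less Sod1. The secreted dismutase Sod3 was at 18.8 and 92.4 TPM.

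Of the peroxide-reducing enzymes outside the peroxiredoxins, Gpx1 led. Gpx1, the cytosolic and mitochondrial glutathione peroxidase (chr9:108338903-108340343), stood at 2126 TPM in pup 1 and 2732 TPM in pup 3 (2429 ± 429). It ranked 55th and 45th of all genes, the highest of the 10 enzymes in both pups. Gpx4, which reduces lipid hydroperoxides in membranes and protects cells against ferroptosis (chr10:80047166-80056439), was at 540 and 495 TPM (517 ± 32.2). Cat (chr2:103453849-103485160) was at 391 and 429 TPM (410 ± 26.9). The values of the last 2 genes lay close together between pups, and both pups had Gpx4 above Cat. Summed, the 3 genes held 0.306% of endogenous TPM in pup 1 and 0.366% in pup 3.

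Of the peroxiredoxins, Prdx1 and Prdx2 were the most abundant. Prdx1, a mainly cytosolic form (chr4:116685544-116700822) stood at 852 and 1091 TPM (971 ± 170). Prdx2, the principal peroxiredoxin of red cells (chr8:84969587-84974834), stood at 644 and 847 TPM (745 ± 143). Both were higher in pup 3. Prdx5, which acts in mitochondria, peroxisomes and cytosol (chr19:6906697-6910106), was at 370 and 345 TPM (358 ± 17.6). Prdx6, which works with a single reactive cysteine and also has phospholipase activity (chr1:161240112-161251219), was at 336 and 356 TPM (346 ± 13.9). Prdx6 had the smallest spread of the 10 genes, with an SD of 4.01% of its mean, against 70.5% for Sod1.

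Blvrb (chr7:27447978-27466144) stood at 296 TPM in pup 1 and 321 TPM in pup 3 (308 ± 17.3), from 10495 and 7684 counts. Blvra, which encodes the reductase of the alpha isomer of biliverdin, had 0 counts in both pups. On the TPM scale, Blvrb was 3486-fold above a limit of 3 counts for Blvra in pup 1 and 2590-fold above it in pup 3. That limit covers counting error only, and 0 counts do not bound a level so closely here. The macrophage marker C1qc, for example, had 0 counts in pup 1 and stood at 196 TPM in pup 3.

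By mean TPM the order was Gpx1, Sod1, Prdx1, Prdx2, Gpx4, Cat, Prdx5, Prdx6, Blvrb and Sod2. The values of neighbours in that order did not overlap between the 2 libraries for 7 of 9 neighbours. They overlapped for Sod1 with Prdx1 and for Prdx5 with Prdx6, whose order is not settled. The values of Sod1 also span those of Prdx2, so Sod1 came before Prdx2 in pup 1 and after it in pup 3. Prdx1 and Prdx2 were separated by little, the lower value of Prdx1 being 852 TPM and the higher value of Prdx2 847 TPM.

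Only 1 of the 10 enzymes, Sod1, differed more than 2-fold between pups on the log2(TPM + 1) scale, a scale that understates differences of low genes. Of 8120 genes whose expected count averaged 10 or more, 67.6% differed by that much in either direction. Most of those genes are less abundant than the enzymes. Among 1053 genes with a mean of 100 to 3000 TPM, a range that holds 9 of the enzymes, 33.7% did. Those 9 lie at 308 to 2429 TPM, and level was not matched within the range. Among genes of 10 to 100 TPM the share was higher, at 75.4%. The median absolute log2 difference was 0.25 for the 10 enzymes and 0.13 for the 9 in that range. It was 0.67 for genes of 100 to 3000 TPM and 2.07 for all 8120. For 15 ERCC spike-in RNAs of the same range in TPM as deposited, before rescaling, it was 0.45, with 1 of 15 beyond 2-fold. These RNAs were added to both samples and carry no animal difference. The signed differences of these spike-ins had a median of -0.29, with 5 of 15 higher in pup 3, so their absolute differences include a common offset. The most different of them was at -1.13 with this offset included, and each enzyme other than Sod1 differed by less than that in rescaled TPM. The scales thus differ, so this is no like-scaled limit for the enzymes.

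**Figure D2:**
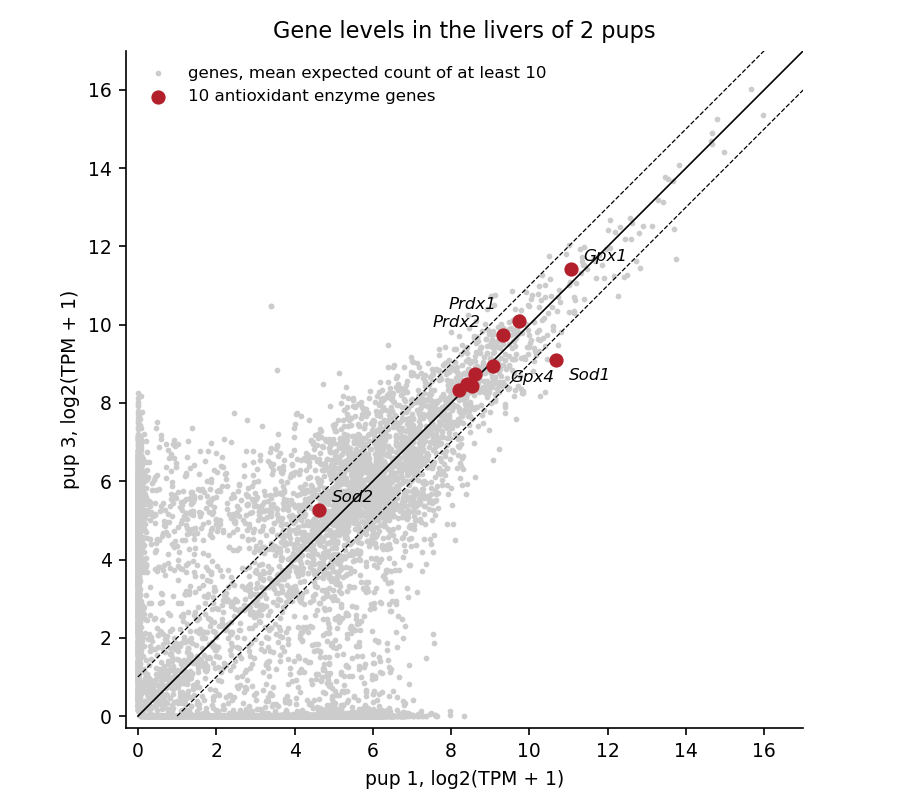
Each gene's level in pup 1 (horizontal) and pup 3 (vertical), as log2(TPM + 1), for 8120 genes averaging 10 or more expected counts (grey) and the 10 enzymes (red). The solid line marks equal levels and the dashed lines 2-fold differences. Of the enzymes, Sod1 lies outside the dashed lines, and unlabelled red points are Cat, Prdx5, Prdx6 and Blvrb.

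The signed difference, pup 3 minus pup 1, was -1.58 for Sod1, which makes it 2.99-fold higher in pup 1. It was 0.62 for Sod2, 0.39 for Prdx2, 0.36 for both Gpx1 and Prdx1, 0.13 for Cat, 0.11 for Blvrb, 0.08 for Prdx6, -0.10 for Prdx5 and -0.13 for Gpx4. The median over the 10 was 0.12, equal to the median of 0.12 for genes of 100 to 3000 TPM and beside -0.04 for all 8120. The direction of Sod1, Sod2, Gpx1, Prdx1 and Prdx2 was the same under all 8 scalings and pseudocounts tried. That of Cat, Prdx6 and Blvrb turned under edgeR TMM and DESeq2 scaling, that of Gpx4 under CPM and spike-in scaling, and that of Prdx5 under spike-in scaling. For these 5 genes no direction between the pups can be given. Scaling moved the median of genes of 100 to 3000 TPM by -0.24 (TMM), -0.23 (DESeq2), 0.11 (CPM) and 0.25 (spike-ins).

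Sod1 stood apart from the other enzymes, but not from the table. Of the 1053 genes of 100 to 3000 TPM, 17.6% differed more than Sod1 did. Its log2 difference ranged from -1.82 to -1.33 over the 8 settings. The deposited credibility bounds, which come from each library's reads alone, lie around the posterior mean TPM, an estimate slightly below the TPM given here. For Sod1 they were 1611 to 1644 around 1626 in pup 1 and 531 to 553 around 542 in pup 3. For all 10 enzymes the half-width of that interval was between 0.872% and 3.19% of the posterior mean. The deposited table counts Sod1 as a single transcript. The processed pseudogene Gm8566 shares 137 of the 50-base stretches of Sod1 and held 181 and 55.5 expected counts, against 37613 and 8643 for Sod1. Those 137 are 3.42% of the stretches of all Sod1 transcripts in a later annotation. That is more sequence than the counted transcript of 646 bases, and the share of this transcript alone was not computed. Scaf4 overlaps Sod1 by 650 bases on the opposite strand and had 0 counts in both libraries.

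By summed share hepatocyte markers were lower and red cell markers higher in pup 3, as given above. The hepatocyte sum is led by Trf (64244 and 42243 TPM) and Ahsg (32190 and 21893 TPM), both lower in pup 3, whereas 4 of the 10 markers, Alb, Ttr, Apob and Hnf4a, were higher there. The median log2 difference was -0.27 over 10 hepatocyte markers and 0.09 over 14 red cell markers, and the latter is smaller than the shifts between scalings, so it has no settled direction. Alas2, which starts heme synthesis in red cell precursors, was at 642 and 498 TPM, and Hba-a2, an alpha-globin gene, was at 51908 and 66584 TPM, so these red cell genes did not share a direction. Fewer cells of a type and less RNA per cell cannot be told apart in bulk RNA. The part of these markers in the differences of Prdx1, Prdx2, Gpx1 and Sod1 was not tested.

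**Figure D3:**
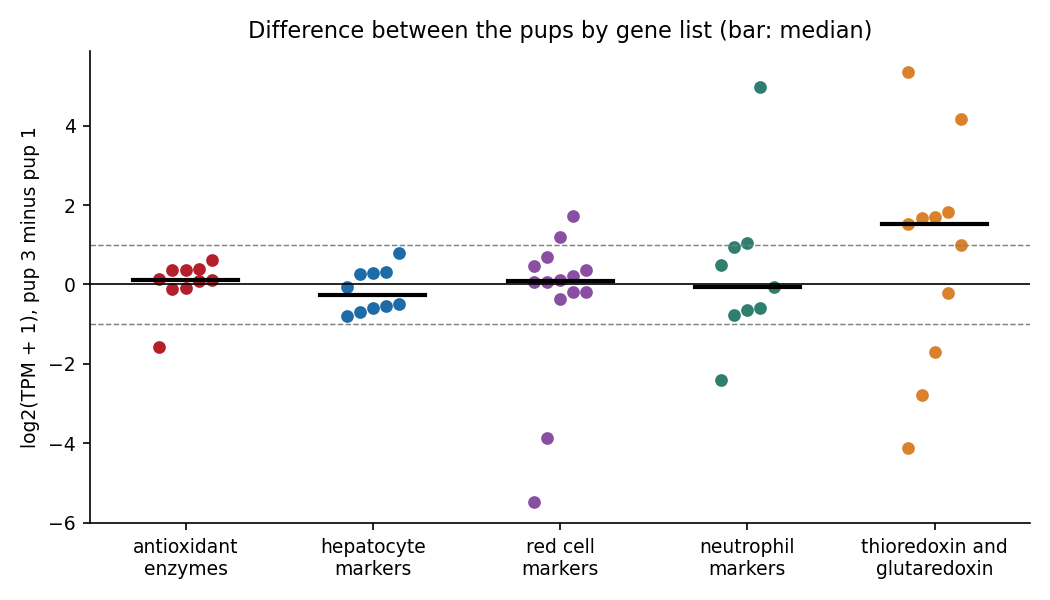
Difference between the pups, log2(TPM + 1) of pup 3 minus pup 1 (vertical), for the 10 enzymes, the markers of hepatocytes (10), red cells (14) and neutrophils (9), and the 11 genes of the thioredoxin and glutaredoxin list that average 10 or more expected counts. Each point is a gene, bars are medians (0.12, -0.27, 0.09, -0.05 and 1.53) and dashed lines mark 2-fold.

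The same measure was used to find, for each enzyme, the protein-coding gene closest to it in log2(TPM + 1) over both libraries, a distance over 2 samples that shows a like level only. Near Sod1 was the ribosomal protein gene Rpl23a (1410 and 560 TPM, distance 0.23), and near Gpx1 the apolipoprotein gene Apoc4 (2542 and 2569 TPM, distance 0.27). Near Prdx1 was the metallothionein gene Mt1 (860 and 1189 TPM), near Prdx2 Rps2, near Cat Rps10, near Gpx4 H2-Q10, near Prdx5 the complex I gene Ndufb10 and near Prdx6 the fatty acid oxidation gene Acadvl (distance 0.02). Near Blvrb was Cpb2 and near Sod2 Wfdc1. Sod1 and Gpx1 had no protein-coding gene within 0.2, whereas Sod2 had 18 and Blvrb 15.

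Transcript shares, deposited as percent of the gene's TPM, showed a stable leading form for 9 of 10 genes. Sod1 and Sod2 have a single listed transcript, and Cat-201 made up 100% and 99.8% of Cat. Gpx4-207 (53.7 and 51.4%) and Gpx4-202 (42.4 and 48.2%) divided Gpx4 between them, and Gpx4-201, which starts from an alternative exon and encodes the sperm nuclear form, was at 0 in both pups. Of Gpx1, Gpx1-201 held 61.0% in pup 1 and 55.6% in pup 3, and Gpx1-204 38.8 and 39.7%. Of the 4 Gpx1 transcripts, Gpx1-201 alone has the TGA codon shown above inside its annotated coding part. All 4 hold it in an exon, and in Gpx1-204 the annotated coding part does not include it. For Gpx4, 96.1% and 99.5% of the transcripts hold their TGA codon in the coding part.

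Of Prdx1, Prdx1-201 held 66.1% and 45.6% of TPM, Prdx1-204 31.1 and 29.8%, and Prdx1-205 0 and 24.5%. The shares depend on transcript length. By expected counts, the longer Prdx1-204 led with 64.5% and 63.8%, and Prdx1-201 held 33.5% and 23.9%. Of Gpx4, likewise, Gpx4-202 led by expected counts with 51.1% and 55.8%, before Gpx4-207 with 47.9% and 44.0%. Prdx2-208 held 56.4 and 58.2% of Prdx2. Of the Prdx2 transcripts with a retained intron, Prdx2-205 was at 16.4 and 9.23%, Prdx2-207 at 0.03 and 12.8% and Prdx2-206 at 2.48 and 0.05%, so different transcripts made up most of this share in each pup. Prdx5-203 led Prdx5 with 43.8 and 52.3%, before Prdx5-204 (33.0 and 37.5%) and Prdx5-201 (23.0 and 9.91%).

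Prdx6 was the enzyme whose leading transcript differed between the pups. Prdx6-208, annotated as a target of nonsense-mediated decay, held 50.4% in pup 1 and 28.5% in pup 3. Prdx6-207, a processed transcript without a coding part, held 1.33% and 43.0%, and Prdx6-204, of the same type, 24.2% and 0%. The protein-coding transcripts Prdx6-201 (15.1 and 19.3%) and Prdx6-202 (9.02 and 9.26%) together held 24.1% and 28.6% of the gene. For the other 9 enzymes transcripts annotated as protein coding held between 77.9% and 100%. The gene total of Prdx6, the steadiest of the 10 in TPM, thus rested on different transcripts in each pup, with a similar protein-coding share.

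**Figure D4:**
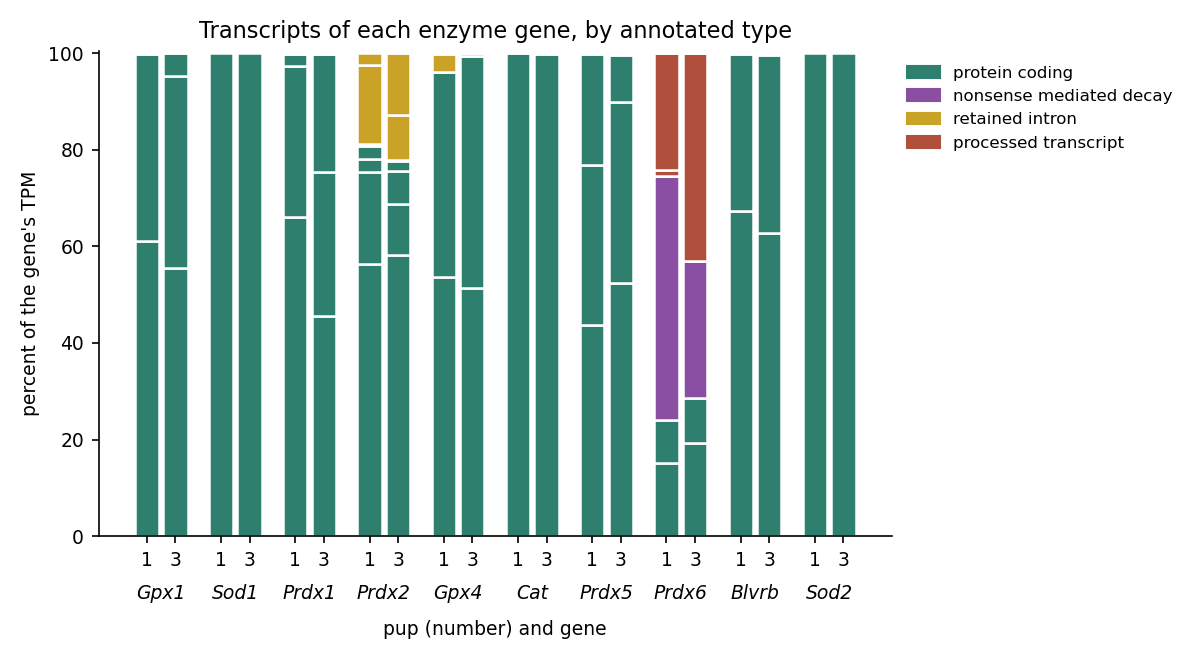
Percent of each gene's TPM (vertical axis) held by each transcript in pup 1 and pup 3, coloured by annotated type, with white lines between transcripts. Of Prdx6, 24.1% and 28.6% lies in transcripts annotated as protein coding, the rest being of the nonsense-mediated decay and processed types, and Prdx2 has 81.1% and 77.9%.

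Blvrb has transcripts from separate starts. Blvrb-201, from position 27447978 of chromosome 7, held 67.3% in pup 1 and 62.7% in pup 3, and Blvrb-202, from position 27452418, held 32.5 and 36.9%. By expected counts Blvrb-202 held 26.1 and 30.1%. Such shares are estimates among overlapping transcripts, and use of either start was not tested. The 150 bases before each annotated start, from RefSeq promoter windows on GRCm38.p6, are shown because both transcripts were assigned counts in both pups. Capitals mark a GC box (GGGCGG on either strand).
Blvrb-201, chr7:27447828-27447977, plus strand: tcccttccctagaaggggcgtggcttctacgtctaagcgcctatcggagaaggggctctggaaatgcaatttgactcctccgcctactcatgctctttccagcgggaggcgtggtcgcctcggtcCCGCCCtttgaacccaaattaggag
Blvrb-202, chr7:27452268-27452417, plus strand: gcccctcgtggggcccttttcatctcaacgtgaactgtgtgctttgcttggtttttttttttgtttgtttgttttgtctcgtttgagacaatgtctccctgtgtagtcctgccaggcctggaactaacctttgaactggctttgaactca
The upstream window is 58% G and C with 10 CpG dinucleotides and 1 GC box. The downstream window is 46% G and C with 3 CpG dinucleotides and none of the motifs searched. Over 32851 RefSeq windows of 150 bases the median was 54% G and C, with the middle 50% of windows between 46% and 64%.

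Promoter windows from 250 bases before to 50 after the start were found for 9 of the 10 enzymes, in 13 windows, and Prdx6 had no entry. Searched on both strands, the GC box GGGCGG was in at least 1 window of each of the 9 genes and in 11 of 13 windows, beside 35.7% of all 32851 windows. CCAAT was in windows of Cat, Gpx4, Sod1 and Sod2 (37.4% of all windows), and TATAAA in those of Prdx1 and Sod1 (13.6%). The erythroid GATA motif AGATAA was in none of the 13 (11.2%). The core of the antioxidant response element, the site that NRF2 binds, TGACNNNGC, was in windows of Prdx1 and Sod1 (12.4%), and these matches are printed with the element in capitals as it reads on the plus strand.
Prdx1, chr4:116685456-116685485: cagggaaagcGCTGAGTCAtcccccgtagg
Sod1, chr16:90220696-90220725: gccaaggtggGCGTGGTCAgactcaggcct
The Prdx1 match begins 133 bases before the start and the Sod1 match 56 bases before it, both reading on the minus strand. Prdx1 was at 852 and 1091 TPM and Sod1 at 1647 and 552 TPM, so these 2 genes differed between pups in opposite directions. A match of letters does not show that a factor bound there.

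Lists of genes that act with the enzymes held 82 different genes, of which 44 were detected in both pups and 59 in either. Of those detected in either pup, 74.6% were therefore detected in both, beside 46.3% over all genes, a share not matched for level. Of the 60 with a mean of at least 10 counts, 42 (70.0%) differed more than 2-fold, beside 67.6% over all genes. The counts given below for each list are over all its members, detected or not. On that base, 3555 of all 43346 genes were detected in both pups, with level again unmatched. Of 11 other members of the same families or helpers, 5 were detected in both pups. These were Prdx3 (152 and 131 TPM), the mitochondrial peroxiredoxin, Prdx4 (52.3 and 238 TPM), the peroxiredoxin of the endoplasmic reticulum, the plasma enzyme Gpx3 (82.9 and 23.0 TPM), Ccs and Sod3. Gpx7 was at 49.98 TPM in pup 1 and 0 counts in pup 3. Gpx2, Gpx5, Gpx6, Gpx8 and Blvra had 0 counts in both. Prdx3, with a log2 difference of -0.21, was as even as the 10 enzymes, and the other 4 detected in both differed more than 2-fold.

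Peroxiredoxins and some glutaredoxins need electron donors, and 10 of 16 genes of the thioredoxin and glutaredoxin list were detected in both pups. The list summed to 726 TPM in pup 1 and 1619 TPM in pup 3. Txn2, the mitochondrial thioredoxin, was at 207 and 663 TPM, Txnip, which binds and inhibits thioredoxin, at 98.2 and 324 TPM, and Txn1, the cytosolic thioredoxin, at 83.6 and 301 TPM. Glrx was at 120 and 103 TPM. Of the thioredoxin reductases, Txnrd1, the cytosolic form, had 1 count in each library, and the mitochondrial Txnrd2 was at 1.40 and 96.8 TPM. Srxn1, which repairs over-oxidised peroxiredoxins, had 0 counts in both. Over the 11 genes of this list with a mean of at least 10 counts, 6 were more than 2-fold higher and 3 more than 2-fold lower in pup 3, beside the 67.6% of all such genes that differed by that much in either direction.

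For glutathione, only Gss of 8 genes was detected in both pups (82.5 and 49.4 TPM). Gsr, glutathione reductase, had 0 counts in pup 1 and 36 in pup 3. Gclc, the catalytic subunit of glutamate-cysteine ligase, was at 0.589 and 28.5 TPM, its modifier Gclm at 0 and 2.64 TPM, and Ggt1 at 0 and 117 TPM. The cystine carrier Slc7a11 had 0 counts in both. Of 10 genes listed for NADPH supply and the pentose phosphate pathway, 6 were detected in both pups. The highest were Taldo1 (265 and 358 TPM) and Pgls (84.5 and 288 TPM), both of that pathway, and Idh2 (107 and 114 TPM). G6pdx, which opens the pentose phosphate pathway, was at 62.9 and 58.1 TPM. The next enzyme that makes NADPH in that pathway, Pgd, had 9 counts and 0.

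**Figure D5:**
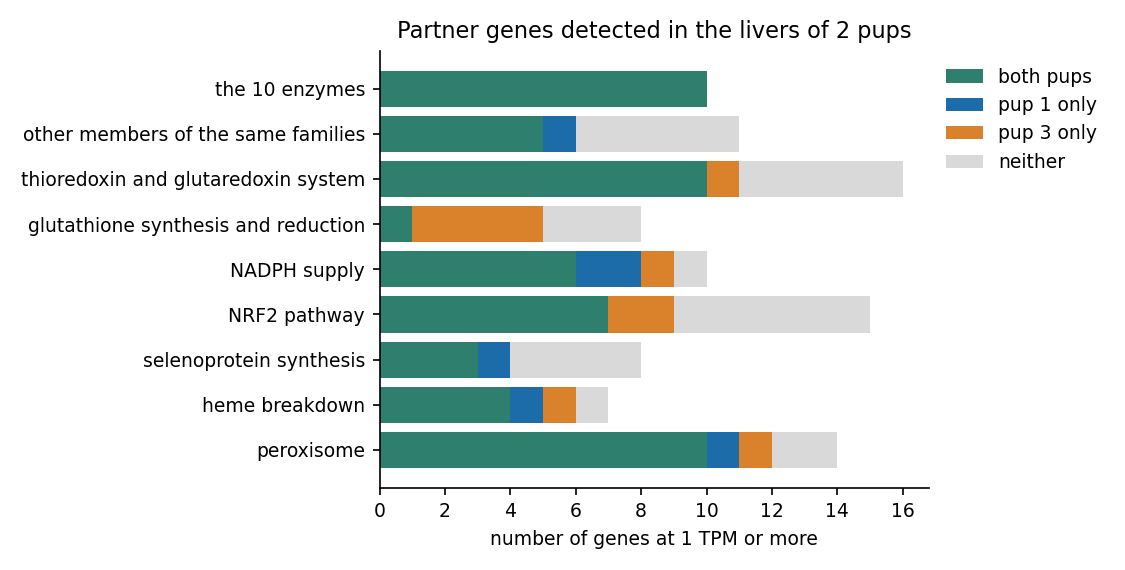
Number of genes (horizontal axis) at 1 TPM or more in both pups, in pup 1 only, in pup 3 only or in neither, for the 10 enzymes and 8 lists of genes that act with them. Detected in both pups were 10 of 10 enzymes, 1 of 8 genes for glutathione synthesis and reduction and 10 of 16 of the thioredoxin and glutaredoxin list. Another 4 and 1 genes of these lists, respectively, were detected in 1 pup only. Of all 43346 genes, 3555 were detected in both pups and 7678 in either. Levels were not matched, so these counts are descriptive.

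Of 15 genes of the NRF2 pathway, the main inducer of antioxidant genes, 7 were detected in both pups. The factor itself, Nfe2l2, was at 63.5 and 172 TPM. Its inhibitor Keap1 had 0 counts in pup 1 and stood at 29.6 TPM in pup 3. Gstm1 was at 125 and 442 TPM, Hmox1 at 112 and 17.7 TPM and Nqo1 at 38.6 and 46.0 TPM. Gsta1, Srxn1, Slc7a11, Maff and Bach1 had 0 counts in both.

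Gpx1 and Gpx4 need selenium. Selenop, which carries selenium out of the liver, was the most abundant gene of its list, at 4093 and 5447 TPM. Sephs2, which makes the selenium donor, was at 92.3 and 259 TPM, and Sepsecs, which completes selenocysteine on its tRNA, at 16.6 and 18.3 TPM. Secisbp2 and Pstk had 0 counts in both pups, and Eefsec, the elongation factor for selenocysteine, had 0 and 18 counts. Those genes were therefore not detected or nearly so in these libraries, beside 71881 and 62076 counts of Gpx1. Trit1, of the same list, had 2320 counts in pup 1 and 0 in pup 3, and the cause of such absences was not tested.

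Of 7 genes of heme breakdown, 4 were detected in both pups. Ugt1a1, which conjugates bilirubin, was at 248 and 367 TPM, Slco1b2 at 218 and 64.6 TPM and Hmox1 as above, while Hmox2 had 1 count in pup 1 and stood at 83.4 TPM in pup 3. Of 14 peroxisomal genes, 10 were detected in both, among them urate oxidase (Uox, 912 and 314 TPM), which makes hydrogen peroxide. Cat, of the same organelle, was close in the 2 pups, while Uox and Pex16 (305 and 137 TPM) were more than 2-fold higher in pup 1.

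Some counts are shared with other sequences. In both libraries 6 of 10 enzymes had whole-number counts (to within 0.005), which expected counts have where no read is divided among genes, whereas Sod1, Prdx1 and Prdx2 did not, nor did Prdx5 in pup 1. The processed pseudogenes Gm21399 and Gm7204 share 5.44% and 4.60% of the 50-base stretches of Prdx1 and held 13.0 and 42.3 counts and 71.1 and 88.2 counts, beside 37659 and 32038 for Prdx1. Tdpx-ps1 shares 4.53% of those of Prdx2 and held 30.1 and 39.6 counts. Gpx4-ps2 shares 34.7% of those of Gpx4 and was not analysed here, so its part in the Gpx4 value cannot be told apart. Sod2 shares 17.6% of its stretches with the non-coding gene AC166110.4, also not analysed here, and 15.97% with Rps6ka2, which had 0 counts in both libraries. These percentages are over every transcript of an enzyme in the later annotation, which for Sod1 and Sod2 is more sequence than was counted. Prdx5 overlaps Trmt112 by 409 bases on the opposite strand (452 and 122 counts), and Prdx2 overlaps Junb (0 and 1533 counts) and Rnaseh2a (951 and 649 counts). No source used here states whether counting used strand, so reads in those overlaps cannot be told apart.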

How the data were processed

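Per the labels' protocols, RNA of 2 newborn livers was extracted with a mirVana kit and amplified by a SmartSeq protocol, which copies and amplifies cDNA by PCR. Per the deposited notes, values refer to mm10 with GENCODE M4. Their aligner and quantifier were not given in the sources used here. Deposited per gene and transcript by the authors were expected counts (model estimates of reads, not always whole) and TPM, corrected for effective length. Posterior means with their credibility bounds, also deposited, were handled as a score. Isoform percent, as deposited, is a transcript's part of its gene. Spike-ins (3.76% and 3.28% of counts) were removed and TPM was rescaled to its former total. GENCODE M21, built on the same assembly (GRCm38), supplied names and coordinates and matched 42462 of 43346 genes, all 168 list genes and all 47 enzyme transcripts. Promoters came from RefSeq on GRCm38.p6.

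The members and lists were chosen with earlier results of these data known, and the 100 to 3000 TPM range was set after the values were seen. Named genes were the 10 enzymes, transcripts at 10% or more of a gene, up to 4 leading members of each list with members under 1 TPM that define it, the nearest protein-coding genes and pseudogenes of the enzymes with counts. Genes outside that rule were chosen after their values were seen, namely Gpx3, Gpx7, Txnrd2, Gclm, Keap1, Nqo1, Hmox2, Alas2, Epb42, Klf1, Gpx4-ps2, AC166110.4, Rps6ka2, Hnf4a, Ttr, Apob, the overlapping genes and the transcripts Gpx4-201, Prdx2-206 and Prdx6-202. Detection was 1 TPM, the pseudocount 1 TPM and a fold of 2 was used. No test was run. Ratio calculations were tested on simulated data. Shared sequence was searched in stretches of 50 bases over all M21 transcripts of an enzyme. Alternatives covered units, estimates, pseudocounts, thresholds, each library alone, and scaling on rounded expected counts. Scaling factors came from DESeq2 1.42.0 and edgeR 4.0.16 in R 4.3.3, figures from matplotlib 3.10.9, and all other values from pandas 2.3.3 and numpy 2.4.6 in Python 3.11.15.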

Additional observations from a re-analysis of the deposited data

How the results depend on the processing

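The 10 enzymes were detected in both pups under every threshold, estimate and single library tried (7 alternatives). Their summed share, 0.721%, was 0.532% by CPM, 0.711% by posterior mean TPM, 0.677% with spike-ins kept and 0.771% of protein-coding genes, and 0.720% to 0.723% in either library alone. The median log2 difference, 0.12, was -0.12 with edgeR TMM factors, -0.11 with DESeq2 size factors and 0.37 with spike-in totals. It stayed within 0.01 of the median of genes of 100 to 3000 TPM under these scalings, as both moved together. The number of enzymes beyond the fold limit, 1 at 2-fold, was 2 at 1.5-fold and 0 at 4-fold, and 1 under the 7 other units and scalings. Of the single-gene values, 7 of 40 levels (all by CPM), 19 of 70 log2 differences and 5 of 20 leading isoform shares (all by expected counts, with Prdx1-201 at 28.7% in place of 55.9%) moved by more than the spread between libraries. No paired analysis was possible because the labels give a single group. With 2 libraries, the spread rests on 1 difference per gene. Some partner genes had 0 counts in 1 pup only, such as Ggt1 (0 and 4162 counts) and Gpx7 (2483 and 0 counts). The cause of such gaps was not tested.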
